A study of Mus musculus with 9 samples.

Results

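Chemokine ligands are small secreted proteins that draw leukocytes along gradients through G protein-coupled receptors. The 10 ligand genes described here, Ccl3, Ccl4, Ccl5, Ccl6, Ccl9, Ccl17, Ccl22, Cxcl2, Cxcl10 and Cxcl16, were taken by symbol from the 23420 symbols of the deposited expression table, and all 10 were found. They were followed across 9 RNA sequencing libraries of Mac1+ mouse bone marrow cells, each made from 100 sorted cells. Mac1, encoded in part by Itgam, is carried by granulocytes, monocytes and some dendritic and natural killer (NK) cells.

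All 9 libraries came from C57BL/6 mice with floxed Ezh2 and Runx1 alleles (Ezh2 fl/fl Runx1 fl/fl), so every group, the control included, carried the floxed alleles. The DKOITD group (n = 4) had in addition Rag1Cre+ and Flt3 ITD/+, the ITD group (n = 2) had Flt3 ITD/+ and no Cre, and the WT group (n = 3) had neither. Ezh2 encodes a histone methyltransferase, Runx1 encodes a haematopoietic transcription factor, and Flt3 encodes a growth factor receptor of progenitors and dendritic cells, of which the ITD form is an activating mutation. Rag1Cre is active in lymphoid progenitors, and the labels give neither the share of Mac1+ cells that had recombined nor the age of the mice. The labels do not say whether replicates came from separate animals, so the p-values measure the spread between these libraries.

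Chemokines are grouped by the spacing of their first cysteines into CC and CXC ligands. Ccl3, Ccl4 and Ccl5 are inflammatory ligands that draw monocytes and T cells, and Ccl3 and Ccl5 bind Ccr1. Ccl6 and Ccl9 are rodent ligands of Ccr1 made by myeloid cells. Ccl17 and Ccl22 bind Ccr4 on T cells and are known products of activated dendritic cells. Cxcl2 recruits neutrophils through Cxcr2, Cxcl10 is an interferon-induced ligand of Cxcr3, and Cxcl16 is a membrane-bound ligand of Cxcr6 that can be shed from the cell surface.

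The genes lie in few places of the genome (mm10, GENCODE vM21 positions). Ccl5 (chr11:83525778-83530518), Ccl9 (chr11:83572919-83578636), Ccl6 (chr11:83587882-83593087), Ccl3 (chr11:83647844-83649355) and Ccl4 (chr11:83662584-83664683) lie within 138.906 kb, Ccl4 on the plus strand and the other members of the cluster on the minus strand. Cxcl16 (chr11:70453983-70459984, minus strand) is elsewhere on the same chromosome. Ccl22 (chr8:94745590-94751699) and Ccl17 (chr8:94810453-94812036) lie on the plus strand within 66.447 kb. Cxcl2 (chr5:90903871-90905938, plus strand) and Cxcl10 (chr5:92346638-92348889, minus strand) are on chromosome 5. Each is annotated as protein-coding.

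Promoter sequences from RefSeq (GRCm38.p6, the assembly of mm10) were matched for 7 of the 10 genes, and the 250 bases before the start of each were searched on both strands for 5 motifs. Those of Cxcl10, Ccl22 and Ccl17 are printed 5′ to 3′ on the gene's strand. Cxcl10 was chosen because it holds matches to the interferon and NF-kB motifs. Ccl22 and Ccl17 were chosen because they lie close together and had unlike patterns across the libraries. Capitals mark matches to any of the 5 motifs. RefSeq starts Ccl22 downstream of the GENCODE start, so that its window lies partly inside the GENCODE gene.
Cxcl10 promoter, chr5:92348890-92349139, minus strand: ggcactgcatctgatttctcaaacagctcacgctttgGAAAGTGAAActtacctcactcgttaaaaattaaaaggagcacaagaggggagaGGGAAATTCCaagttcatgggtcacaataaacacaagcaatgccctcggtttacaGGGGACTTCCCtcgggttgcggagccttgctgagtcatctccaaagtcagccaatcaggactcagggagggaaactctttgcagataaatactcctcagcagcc
Ccl22 promoter, chr8:94745434-94745683, plus strand: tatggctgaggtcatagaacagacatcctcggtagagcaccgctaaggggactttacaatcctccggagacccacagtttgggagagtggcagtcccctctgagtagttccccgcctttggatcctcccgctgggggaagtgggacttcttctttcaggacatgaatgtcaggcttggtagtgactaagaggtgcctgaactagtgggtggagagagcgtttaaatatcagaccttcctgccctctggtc
Ccl17 promoter, chr8:94810203-94810452, plus strand: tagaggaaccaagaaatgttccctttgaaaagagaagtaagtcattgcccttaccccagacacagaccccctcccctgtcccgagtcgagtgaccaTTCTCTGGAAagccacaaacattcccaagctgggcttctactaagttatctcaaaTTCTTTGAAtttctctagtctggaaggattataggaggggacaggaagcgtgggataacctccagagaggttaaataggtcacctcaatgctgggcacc

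The Cxcl10 window held the interferon-stimulated response element (ISRE, GAAA and GAAA with any 2 bases between), which was in 2.98% of the 32851 promoter windows of that length, and NF-kB motif matches, the last of which are a pair that overlap each other. The NF-kB motif was in 7.25% of all windows and in 3 of the 7 searched here, those of Ccl9, Cxcl2 and Cxcl10. The Ccl17 window held a match to the GAS motif of STAT factors (TTC and GAA with any 3 bases between, in 7.02% of all windows) and a match to the wider-spaced STAT6 motif (any 4 bases between, in 5.85%). The composite ETS-IRF motif (GGAA and GAAA with any 2 bases between, in 2.30% of all windows) was in none of the 7, and the Ccl22 window held none of the 5 motifs. The 300-base promoter entries of Ccl6 and Ccl9, which run past the start of each gene, aligned to each other over 74 columns with 79.7% identity. Counted from the start, the aligned part ran from -59 to 14 in Ccl6 and from -18 to 48 in Ccl9. In Ccl9 it thus lay mostly after the start. No other pair was aligned for comparison. A match describes letters in a window and not a bound site.

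Expression was given as RPKM (reads per kilobase of transcript, scaled by a denominator per library whose basis is not given). Tests were made on log2(RPKM + 1) with limma over 10868 genes in 1 fit of the 9 libraries, with Benjamini-Hochberg adjusted p and a threshold of 0.05. Reads per library, recovered from the steps between low RPKM values, were between 2825728 (DKOITD 2) and 23124435 (WT 1). WT 2 stood somewhat apart, with a median correlation with the other libraries of 0.759, against 0.815 to 0.881 for those. The RPKM denominators were larger than the recovered reads in DKOITD (ratios of 1.13 to 1.44) and smaller in ITD (0.853 and 0.919) and in WT (0.703 to 0.810). In ITD and WT they were therefore not a plain total of these reads. Rescaling to recovered reads moves the groups relative to each other. The labels also carry a number per library, 228 to 274 for DKOITD 1 to 3 and 385 to 393 for the other 6 libraries, with no stated meaning. Of those listed, 11 neutrophil markers and 11 monocyte and macrophage markers were all above 0 in at least 1 library, which does not measure purity. Of the lymphoid genes Pax5 and Cd3e were at 0 in all 9, Cd3d was above 0 in all 9 (at most 17.6 RPKM), Nkg7 reached 342 RPKM and Cd79a 2.66 RPKM. The globin gene Beta-s had 17103, 5372 and 17.0 RPKM in WT 1 to 3, 0 and 2669 RPKM in ITD 1 and 2 and at most 0.289 RPKM in DKOITD. Pf4 had 101 RPKM in WT 1. The purity of the sort was not tested.

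Ccl6 and Ccl9, the CCR1 ligands of rodent myeloid cells, together held most of the summed chemokine ligand RPKM in every library. They made up 70.9 ± 17.3% (SD, n = 4) of the summed RPKM of 40 chemokine ligand genes in DKOITD, 93.6 and 96.1% in the 2 ITD libraries and 88.6 ± 1.08% (SD, n = 3) in WT. The 10 ligands together held between 92.4% and 99.97% of that sum in each library. Ccl6 ranked between 41 and 60 among all symbols in the DKOITD and ITD libraries, and 45, 108 and 297 in WT 1, 2 and 3. By mean RPKM, the second most abundant ligand was Ccl5 in DKOITD, with a range that overlapped that of Ccl9, and Ccl9 in ITD and in WT, where its range overlapped that of Ccl5.

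**Figure D1:**
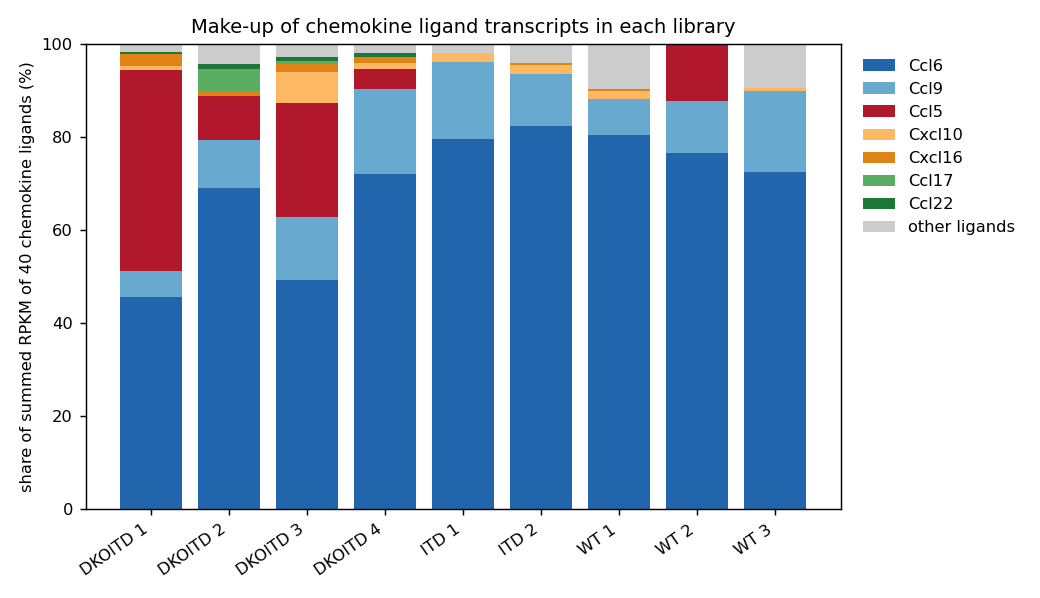
Stacked bars give, for each library, the share (%) of the summed RPKM of 40 chemokine ligand genes held by 7 ligands named in the legend, with the remaining ligands in grey. Ccl6 (dark blue) and Ccl9 (light blue) hold 51.3 to 90.4% of the bar in DKOITD, 93.6 and 96.1% in ITD and 87.7 to 89.8% in WT, and Ccl5 (red) holds 4.24 to 43.0% in DKOITD and 12.2% in WT 2.

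Across the 10 ligands, Ccl5, Ccl9, Ccl22 and Cxcl16 rose in DKOITD against WT and none fell. That is 4 of 10 past the threshold as higher, where 7.43% of all tested genes were called higher, and 0 as lower, where 5.27% were called lower (12.7% in either direction). At an unadjusted p under 0.05 the same 4 and no others were found, all higher, where 30.2% of all tested genes had such a p. The median log2 difference of the 10 was 1.65, against 0.17 over all tested genes. Against ITD, Ccl22 rose in DKOITD, 1 of 10, where 0.156% of all tested genes were called higher, and none fell, where 0.0552% were called lower (0.212% in either direction). At an unadjusted p under 0.05 there were 3, Ccl5, Ccl22 and Cxcl16, all higher, where 15.7% of all tested genes had such a p. The median of the 10 was 0.37 there, against 0.11 over all tested genes. In ITD against WT limma called 0 of 10, where 0.0092% of all tested genes (1 gene, Cd209a) were called, and 1 ligand, Ccl9, had an unadjusted p under 0.05, as 7.93% of all tested genes had. The medians there were 0.38 for the 10 and 0 for all tested genes. All 10 passed the filter on low values (an RPKM of 1 or more in 2 or more libraries), but Ccl17 and Ccl22 passed it through DKOITD libraries alone, Ccl5 needed them, since WT 2 was the 1 other library above that level, and Cxcl2 passed without them. Genes that enter a test through the group where they are high are likely to differ, so these counts are a description. Without the filter 2 ligands, Ccl22 and Cxcl16, were called in DKOITD against WT. The DKOITD comparisons share their 4 DKOITD libraries, and the comparisons with WT share the 3 WT libraries, so they are not independent of each other.

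**Figure D2:**
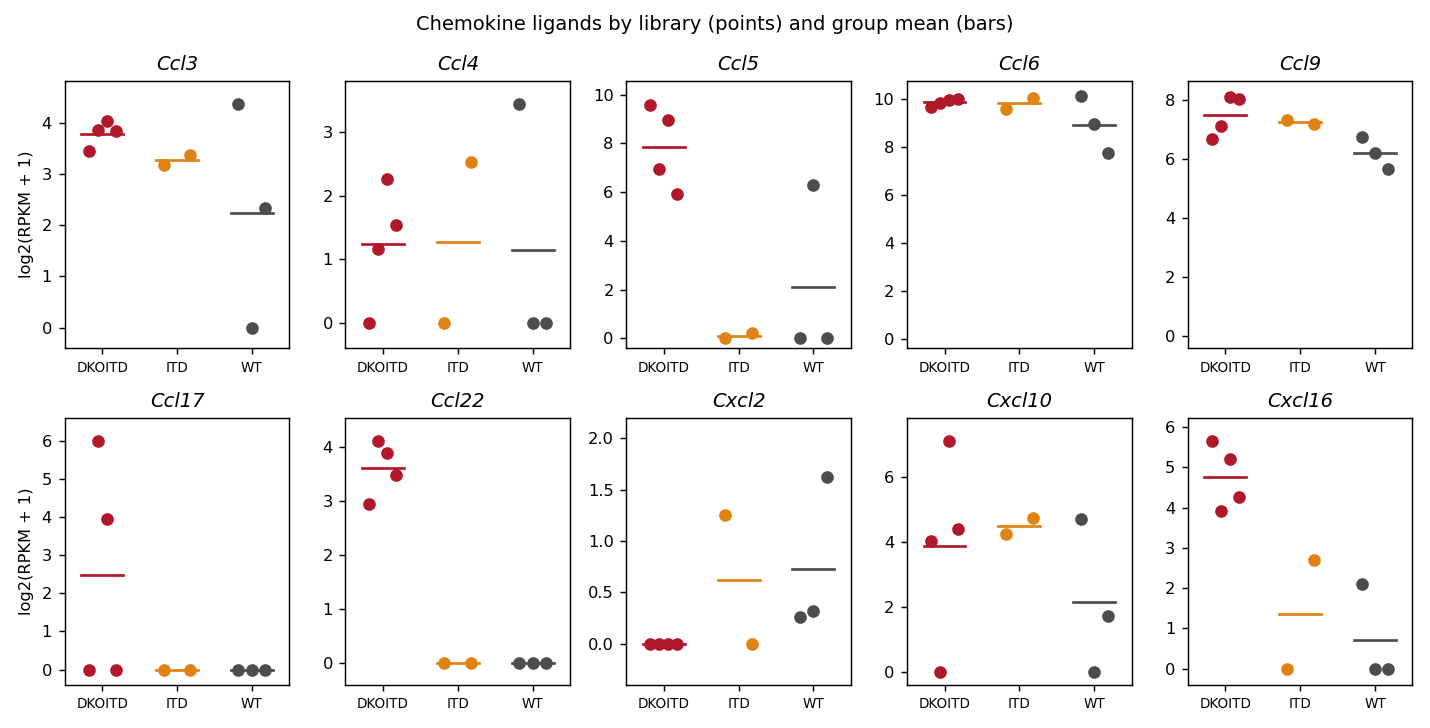
Each panel shows 1 ligand as log2(RPKM + 1) in the DKOITD, ITD and WT libraries (points) with the group mean on that scale (bars); the vertical axes differ between panels. Ccl22 and Cxcl16 are higher in all 4 DKOITD libraries than in any ITD or WT library, and Ccl5 is above 60 RPKM in the 4 DKOITD libraries and in WT 2.

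Scaling bore on the counts. With values scaled per recovered read, all genes shifted by a median of 0.74 (log2) in DKOITD against WT. In that setting 2535 genes were called higher and 247 lower. It replaces the deposited denominators with recovered totals, which include the reads of S100a8 (means of 92539 RPKM in DKOITD and 638208 RPKM in WT). The part of such abundant genes in the shift was not tested. Quantile normalization gave 678 higher and 767 lower, with a median of -0.03, and the fit on the deposited scale gave 807 higher and 573 lower. Among the ligands, 5 were called higher in DKOITD against WT per recovered read and 4 after quantile normalization, and none was called lower under either. With a model term for the label number series, 4 genes and 0 ligands were called in DKOITD against WT, and 0 genes in DKOITD against ITD. In that model DKOITD 4 alone is set against libraries of its own number series.

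The CCR4 ligand Ccl22 rose in DKOITD against WT and against ITD. It had 6.64, 16.3, 13.7 and 10.1 RPKM in DKOITD 1 to 4 (11.7 ± 4.22, SD, n = 4), and was at 0 in ITD 1 and 2 and in WT 1, 2 and 3. The DKOITD values rested on 145, 108, 268 and 274 recovered reads. A count of 0 in ITD and WT allows up to 0.0885 to 0.353 RPKM by library (3 reads, counting error only). The log2 difference was 3.60 ± 0.45 (SE) in DKOITD against WT, with a limma adjusted p of 0.00133, and 3.60 ± 0.51 (SE) in DKOITD against ITD, with an adjusted p of 0.0334. Ccl22 passed the filter through DKOITD alone, and without the filter the adjusted p were 0.0102 against WT and 0.0424 against ITD. With values of 0 in a whole group, these differences depend on the pseudocount. The call against WT was lost with a term for the series of label numbers (3.47 ± 0.71, adjusted p = 0.149). The call against ITD was lost in 6 of 18 alternatives, among them without DKOITD 1 (adjusted p = 0.0575), DKOITD 3 (0.114), ITD 1 (0.146) or ITD 2 (0.225), and with the series term (0.980). DKOITD 4, with a label number in the same series as ITD and WT, had 10.1 RPKM.

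Ccl17, the other CCR4 ligand, was seen in fewer libraries than Ccl22. It had 62.3 RPKM in DKOITD 2 and 14.4 RPKM in DKOITD 3, from 117 and 80 recovered reads, and was listed at 0 in DKOITD 1, DKOITD 4 and every ITD and WT library. Its log2 difference in DKOITD against WT was 2.48 ± 1.19 (SE), which did not pass (limma adjusted p = 0.183). Ccr4, the receptor of both, was at 0 in 8 libraries and at 0.196 RPKM in DKOITD 2.

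Ccl5, made by T and NK cells and by activated dendritic cells and macrophages, rose in DKOITD against WT, and its level varied widely among libraries. It had 765, 124, 498 and 60.6 RPKM in DKOITD 1 to 4, against 0 and 0.161 RPKM in ITD 1 and 2 and 0, 78.6 and 0 RPKM in WT 1 to 3. Every DKOITD library exceeded both ITD libraries, while WT 2 lay above DKOITD 4, so DKOITD and WT overlapped. The log2 difference was 5.76 ± 1.33 (SE) against WT (limma adjusted p = 0.0187) and 7.76 ± 1.51 (SE) against ITD, which did not pass (adjusted p = 0.0578). Without WT 2 the difference from WT was 7.86 ± 0.83 (adjusted p = 0.00165). The call from WT was lost without DKOITD 1 (adjusted p = 0.0567), DKOITD 3 (0.0596), WT 1 (0.0667) or WT 3 (0.0506), without the filter on low values (0.0947) and with the series term (3.84 ± 2.00, adjusted p = 0.559).

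Beside Ccl5, markers of cytotoxic cells were measured. WT 2 had 146 RPKM of the granzyme gene Gzma and 6.95 RPKM of the NK receptor gene Ncr1, and the other 8 libraries had 0 of both. Klrd1, an NK receptor chain also found on some dendritic cells, had 124, 15.8, 72.0 and 82.2 RPKM in DKOITD 1 to 4, 0 and 14.9 RPKM in the ITD pair and 0, 39.9 and 0 RPKM in WT. Gzmb, Prf1 and Cd3e were at 0 in all 9 libraries. The granule gene Nkg7 ran the other way, at 6.71 to 50.1 RPKM in DKOITD, 40.1 and 194 RPKM in the ITD pair and 60.1 to 342 RPKM in WT, and fell by 2.96 (log2) in DKOITD against WT (limma adjusted p = 0.0248). Of the 11 NK and T cell markers listed, 10 were in the table and 3 were tested. Of these limma called 0 higher and 1 lower, where 7.43% of all tested genes were called higher and 5.27% lower. Klrd1 was higher at an unadjusted p of 0.00728 (adjusted p = 0.0543). Cd3d, a chain of the T cell receptor complex, was lower (-2.22) at an unadjusted p of 0.00886 (adjusted p = 0.0602). The summed level of the 10 markers was 67.2 to 134 RPKM in DKOITD, 57.4 and 212 RPKM in the ITD pair and 112 to 352 RPKM in WT. Their part in the Ccl5 difference was not tested.

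Ccl3 and Ccl4, the macrophage inflammatory proteins, did not pass in any comparison. Ccl3 had 9.86, 13.5, 15.3 and 13.3 RPKM in DKOITD, 8.09 and 9.39 RPKM in the ITD pair and 19.7, 0 and 4.04 RPKM in WT. The DKOITD libraries were close together and all above ITD, and the WT libraries lay on either side of them. The log2 difference from WT was 1.56 ± 0.77 (SE; limma adjusted p = 0.198), and among 18 alternatives it passed only without WT 1 (2.62, adjusted p = 0.0258). Ccl4 had 0, 1.24, 3.78 and 1.92 RPKM in DKOITD, 0 and 4.78 RPKM in the ITD pair and 9.95, 0 and 0 RPKM in WT, with libraries at 0 in each group. Its log2 difference from WT was 0.09 ± 0.90 (adjusted p = 0.956), and its sign changed under several alternatives.

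Ccl9 rose in DKOITD against WT, by a margin near the threshold. It had 102, 137, 275 and 262 RPKM in DKOITD, 159 and 146 RPKM in the ITD pair and 106, 72.1 and 50.2 RPKM in WT. DKOITD 1 lay below WT 1, whereas both ITD libraries lay above all WT libraries. The log2 difference was 1.28 ± 0.39 (SE) in DKOITD against WT (limma adjusted p = 0.0485), 0.23 in DKOITD against ITD (adjusted p = 0.855) and 1.06 ± 0.46 in ITD against WT (adjusted p = 0.614). Of 18 alternatives, 4 kept the call from WT, with adjusted p between 0.00475 and 0.350. Ccl9 was the 1 ligand whose ITD libraries were all above WT, where 10.1% of all tested genes had such groups, and none was below WT in both ITD libraries, where 8.99% were.

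Ccl6 was high throughout and did not pass in any comparison. It had 809.7, 907, 1002 and 1029.5 RPKM in DKOITD, 766 and 1074 RPKM in the ITD pair and 1117, 493 and 212 RPKM in WT. WT 1 exceeded every DKOITD library, and the other WT libraries were below all DKOITD and ITD libraries. The log2 difference from WT was 0.93 ± 0.44 (SE; limma adjusted p = 0.172). It passed per recovered read (1.70, adjusted p = 0.0166) and without WT 1 (1.53, adjusted p = 0.0228).

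Cxcl16 rose in DKOITD against WT. It had 49.4, 14.1, 36.1 and 18.4 RPKM in DKOITD, 0 and 5.504 RPKM in the ITD pair and 3.32, 0 and 0 RPKM in WT. The lowest DKOITD library was above the highest library of either other group. The log2 difference was 4.06 ± 0.75 (SE; limma adjusted p = 0.00709) against WT and 3.41 ± 0.85 against ITD, which did not pass (adjusted p = 0.0803). The call from WT was lost with the series term alone among 18 alternatives (3.57, adjusted p = 0.387). Exons of Cxcl16 overlap those of Zmynd15 on the opposite strand. The library method marks no strand, and how reads in the overlap were counted is not given. Zmynd15 had 7.10, 2.15, 5.15 and 0.310 RPKM in DKOITD 1 to 4 and 0 in every ITD and WT library. To which of these genes reads from the overlap belong cannot be told apart.

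Cxcl10 did not pass in any comparison. It had 15.2, 0, 136 and 20.1 RPKM in DKOITD, 17.8 and 25.4 RPKM in the ITD pair and 24.9, 0 and 2.28 RPKM in WT. DKOITD 2 was at 0 while DKOITD 3 was the highest of all libraries, so DKOITD spanned the range of the other groups. The log2 difference was 1.74 ± 1.38 (SE) from WT (limma adjusted p = 0.410), -0.60 from ITD (adjusted p = 0.894) and 2.34 ± 1.65 in ITD against WT (adjusted p = 0.740). Beside it, the interferon-induced genes Ifit3 and Isg15 were also at 0 in DKOITD 2, and were 95.5 to 161 RPKM and 13.6 to 28.1 RPKM in the other DKOITD libraries. Ifit3 was 51.0 and 137 RPKM in the ITD pair and 2.08 to 5.62 RPKM in WT. Isg15 was 9.87 and 7.33 RPKM in the ITD pair and 0.0707 to 4.11 RPKM in WT. Other libraries differed in order: WT 1, with 24.9 RPKM of Cxcl10, had 3.42 RPKM of Ifit3 and 0.0707 RPKM of Isg15. DKOITD 3 was below DKOITD 1 for Ifit3 (95.5 against 161 RPKM) and Isg15 (20.5 against 28.1 RPKM). How Cxcl10 relates to these genes was not tested. Art3, whose exons overlap Cxcl10, was at 0 in all 9 libraries.

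Cxcl2 was low everywhere. It was listed at 0 in all 4 DKOITD libraries, at 1.38 and 0 RPKM in the ITD pair and at 0.197, 0.245 and 2.07 RPKM in WT, from 4, 3 and 26 recovered reads in WT. Every WT library was above DKOITD, which was so for 10.9% of all tested genes. A count of 0 in DKOITD allows up to 0.185 to 0.758 RPKM by library (3 reads, counting error only). That range holds the WT 1 and WT 2 values, so the lack of overlap is not resolved at this depth. The log2 difference from WT was -0.73 ± 0.45 (SE, limma adjusted p = 0.290).

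Counting groups without overlap, 2 ligands (Ccl22 and Cxcl16) were higher in every DKOITD library than in any WT library, where 14.1% of all tested genes were. Against ITD there were 4, Ccl3, Ccl5, Ccl22 and Cxcl16, where 17.3% of all tested genes were, and no ligand was lower in every DKOITD library, where 14% were.

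**Figure D3:**
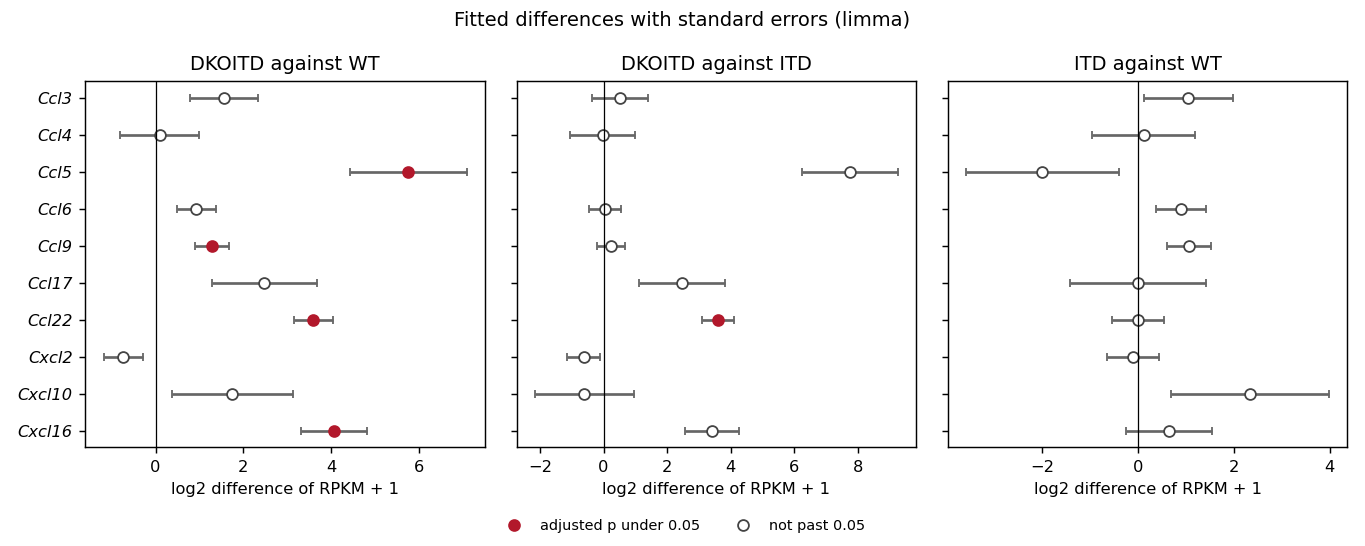
Points give the fitted log2 difference of RPKM + 1 for each ligand in DKOITD against WT, DKOITD against ITD and ITD against WT, with bars of 1 standard error; filled points passed an adjusted p of 0.05 in limma. Filled points are Ccl5, Ccl9, Ccl22 and Cxcl16 in the first panel, Ccl22 in the second and none in the third.

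Of the 30 other chemokine ligand genes in the table, 17 were listed at 0 in all 9 libraries and 6 were tested. A listed 0 need not mean no transcript, least of all for near-identical copies such as Ccl21a, Ccl21b and Ccl21c: the globin pair Hba-a1 and Hba-a2 was also listed at 0 throughout, while Beta-s reached 17103 RPKM. Ccl2, which draws monocytes through Ccr2, rose in DKOITD against WT, by 3.29 ± 0.98 (SE; limma adjusted p = 0.0464). It had 8.02, 34.96, 27.6 and 9.52 RPKM in DKOITD, 0 and 18.9 RPKM in the ITD pair and 0, 0 and 4.93 RPKM in WT. Every DKOITD library was above all WT libraries, and ITD 2 lay within the DKOITD range. The platelet factor gene Pf4 had 101 RPKM in WT 1 and 0 in the other 8 libraries. Ccl25, a ligand of lymphocyte homing, had 0.429 to 6.53 RPKM in DKOITD, 9.237 and 10.04 RPKM in the ITD pair and 0 to 8.13 RPKM in WT and did not pass.

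Of 22 chemokine receptor genes, 11 were tested. In DKOITD against WT 2 rose and 2 fell, where 7.43% of all tested genes were called higher and 5.27% lower, with a median log2 difference of 0.74. Ccr7, which guides dendritic cells to lymph nodes, had 140.1, 26.7, 87.0 and 9.19 RPKM in DKOITD and 0 in all ITD and WT libraries, and rose against WT (5.44, adjusted p = 0.00232) and against ITD (5.44, limma adjusted p = 0.0372). It passed the filter on low values through DKOITD alone, and its differences depend on the pseudocount. Ccr2, which is bound by Ccl2, rose against WT (1.44, adjusted p = 0.0242).

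Among the other receptors Cxcr2 and Cxcr4 fell in DKOITD against WT. Cxcr2, which binds Cxcl2, had 12.4, 32.4, 5.68 and 22.7 RPKM in DKOITD, 48.0 and 78.4 RPKM in the ITD pair and 70.5, 169 and 99.2 RPKM in WT. It fell by 2.71 (log2) in DKOITD against WT (SE 0.52, limma adjusted p = 0.00796). Cxcr4, the marrow retention receptor, fell by 1.70 on that scale against WT (adjusted p = 0.0271). Ccr1, which binds Ccl3, Ccl5, Ccl6 and Ccl9, had 12.8, 55.4, 5.84 and 40.6 RPKM in DKOITD, 44.8 and 80.6 RPKM in the ITD pair and 39.1, 48.6 and 67.01 RPKM in WT and did not pass (adjusted p = 0.201). Cxcr3, which binds Cxcl10, had 1.12 to 13.2 RPKM in DKOITD, 0 in both ITD libraries and 5.88, 0 and 0 RPKM in WT and did not pass (adjusted p = 0.181). Ccr3, also bound by Ccl5, was at most 3.19 RPKM in any library, and Cxcr6, which binds Cxcl16, was at 0 in all 9.

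Of 8 genes of chemokine shedding, cleavage and binding, 1 rose and 2 fell in DKOITD against WT, beside the same shares of all tested genes. Dpp4, a surface peptidase that trims the ends of chemokines such as Cxcl10 and Ccl22, had 49.5, 14.7, 39.2 and 32.1 RPKM in DKOITD, 2.98 and 7.54 RPKM in the ITD pair and 2.31, 0 and 0.794 RPKM in WT, and rose against WT (4.14 ± 0.56, SE; limma adjusted p = 0.00188). Mmp9 and Mmp8, the neutrophil gelatinase and collagenase, had log2 differences of -4.90 (adjusted p = 0.00443) and -2.89 (adjusted p = 0.0317). Adam10 and Adam17, the proteases that shed Cxcl16, differed by 0.11 (adjusted p = 0.844) and 0.04 (adjusted p = 0.945).

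Genes of the pathways that induce chemokines were read against the 7.43% of all tested genes called higher in DKOITD against WT and the 5.27% called lower. Of 16 NF-kB factors and feedback genes, 2 rose against WT and none fell, with a median of 0.42. They were the adhesion gene Icam1 (3.40, limma adjusted p = 0.00539) and the signalling adaptor gene Traf1 (2.68, adjusted p = 0.0195). Traf1 passed the filter on low values through DKOITD alone, with at most 0.403 RPKM in ITD and 0.896 RPKM in WT. Its call is therefore a description. Il1b (-1.55) and Nfkbid (-1.03) were lower at an unadjusted p of 0.0419 and 0.0397. Of 19 interferon regulatory factors, STATs and interferon response genes, 5 rose and none fell, also at an unadjusted p under 0.05, with a median of 1.42. These were the factor genes Batf3 (5.61, adjusted p = 9.65e-05), Irf4 (2.76, adjusted p = 0.0207), Irf5 (1.55, adjusted p = 0.0153) and Irf8 (1.42, adjusted p = 0.0419) and the interferon-induced protease gene Usp18 (3.41, adjusted p = 0.0254).

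Cell-type markers differed between the groups, and in bulk samples fewer cells of a type and less RNA per cell cannot be told apart. The counts of markers against WT are set beside the 7.43% of all tested genes called higher and the 5.27% called lower. Of 15 tested dendritic cell markers 13 rose in DKOITD against WT, among them Cd209a (10.01), H2-Eb1 (8.28), H2-Aa (7.56) and H2-Ab1 (6.82), with a median of 5.61. Their summed level was 9516 to 38473 RPKM in DKOITD, 4260 and 11431 RPKM in the ITD pair and 64.2 to 1222 RPKM in WT. Of 11 tested neutrophil markers 10 fell, among them Mmp9 (-4.90), S100a9 (-3.90), Lcn2 (-3.54) and S100a8 (-3.24), with summed levels of 35406 to 265960 RPKM in DKOITD, 682652 and 728849 RPKM in the ITD pair and 879453 to 1193590 RPKM in WT. Of 11 monocyte and macrophage markers 4 rose, Mrc1, Cd68, Emr1 and Ccr2. Of the erythroid markers, 1 of 3 tested fell, Beta-s (-10.12). No platelet, B cell or eosinophil, basophil and mast cell marker that was tested was called by limma in DKOITD against WT, and none of them had an unadjusted p under 0.05 there. In ITD against WT the dendritic median was 2.09, and 8 of 15 were higher without overlap, where 10.1% of all tested genes were. Against ITD, 2 dendritic markers, Clec10a and Ccr7, were called higher in DKOITD, where 0.156% of all tested genes were. Of the tested dendritic markers, Ccr7, Zbtb46 and Siglech passed the filter on low values through DKOITD alone, and Flt3 and Clec9a needed DKOITD libraries. Such genes are likely to differ, so the dendritic counts are a description. No neutrophil marker was called against ITD, though all 11 were lower without overlap, where 14% of all tested genes were. The part of these differences in cell markers in the chemokine differences was not tested.

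The genes most like each called ligand over the 9 libraries were taken from 10867 tested genes by Pearson's r of log2(RPKM + 1). For Ccl22 these were Plxdc2 (0.998), Mgmt (0.992) and Npm3-ps1 (0.991), for Cxcl16 Cox7a2l (0.991), Kynu (0.984) and Osgep (0.971), for Ccl5 Repin1 (0.980), Nol10 (0.959) and Trit1 (0.955), and for Ccl9 Ccng1 (0.954), Hif1a (0.917) and Clec7a (0.909). The points share the genotype groups and the depth and scaling of each library, and the genes were picked as the top of many, so these values describe the 9 libraries and carry no p.

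**Figure D4:**
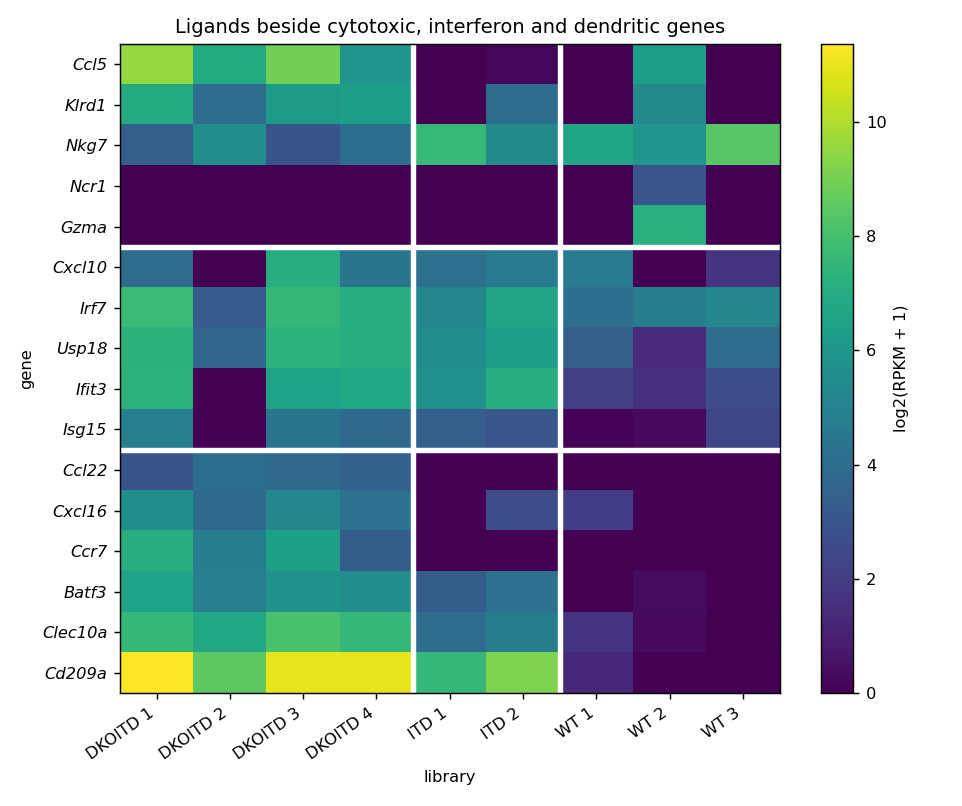
Colour gives log2(RPKM + 1) for ligands beside cytotoxic, interferon and dendritic genes, with 1 column per library and white lines between the genotype groups. Gzma and Ncr1 are above 0 in WT 2 alone, Cxcl10, Ifit3 and Isg15 are at 0 in DKOITD 2, and Ccl22 is above 0 in the 4 DKOITD libraries alone, where Ccr7 also is.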

How the data were processed

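Libraries of 100 sorted cells were made by Smart-seq2, per the labels' protocols. That full-length method marks no strand. The deposited RPKM values, made by the authors, form 1 table of 23420 symbols and 9 libraries. STAR 2.4.2a, SAMtools 1.1, HTSeq 0.6.1p1 and mm10 are named, without roles, in the submitters' processing notes, and neither annotation nor scaling is given in the sources used here. Counting is not stated to use strand, nor is it stated how reads in overlapping genes were counted, so values of such genes may be affected.

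Groups and replicate numbers came from the sample titles. The 10868 genes that reached an RPKM of 1 in 2 or more libraries were fitted as log2(RPKM + 1) with limma 3.58.1 in R 4.3.3 (lmFit, eBayes with a trend), all 9 libraries in 1 fit by group, two-sided, with Benjamini-Hochberg adjustment over all genes and a threshold of 0.05. Differences on this scale understate changes of low genes. Whole reads were recovered from RPKM steps (tolerance 0.0001 reads) for 15564 of 15566 genes, covering 99.98% of values above 0. They serve for depth, for the floor of 3 reads and for 1 rescaling, and may be undercounted for some genes, because the smallest fitting length was taken. Intervals and floors cover counting error only, since PCR reads are not independent molecules. No 2 libraries held identical values (highest correlation across genes 0.931). Simulated data of the same shape, with known changes, were used to check the test. They had independent normal noise per gene, with no floor at 0, no group held at 0 and no differences in depth or scaling. They therefore do not check calls of genes at 0 in whole groups, such as Ccl22.

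The ligands and the 14 other gene lists were chosen with earlier results of these data known. Every ligand is named. Of other lists, called members are named (at most 4 by size of change), as are the 3 other ligands with the highest mean, receptors of a listed ligand, and the 3 genes most correlated with each called ligand. Genes beside Ccl5, Cxcl10 and Cxcl16 (cytotoxic, interferon-induced and overlapping genes), and Adam10 and Adam17, were named after their values were seen. So were the dendritic markers that passed the filter only with DKOITD libraries. Older symbols were matched through RefSeq synonyms, and Hbb-bt, Ly6g and Trac had no match. A few genes are not reported here.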

Additional observations from a re-analysis of the deposited data

Results flagged for a closer look

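In the 4 DKOITD libraries, a value was examined further where its gap to the nearest other, over the range of log2(RPKM + 1), exceeded Dixon's critical value for that number. The 39 genes examined were the 19 of the interferon list and 20 others, namely the 10 ligands, Ccl2, Ccr1, Ccr2, Ccr7, Cxcr2, Cxcr3, Dpp4, Klrd1, Nkg7 and Zmynd15, and the interferon list was added in full after the values of some of its genes were seen. The lowest value was set apart for 8 genes, all of the interferon list, and each time it was DKOITD 2. The critical value is set so that chance passes it in about 1 in 20 groups. That rate cannot be used for a list added after some of its values were seen. The genes were also read in the same 4 libraries, so they describe 1 library and are not separate cases. The gap was 0.871 of the range for Irf7, 0.93 for Irf9, 0.918 for Ifit1, 0.905 for Ifit2, 0.898 for Ifit3, 0.832 for Rsad2, 0.911 for Mx1 and 0.922 for Usp18. DKOITD 2, the library with the fewest recovered reads (2825728), had 8.68 RPKM of Irf7, 12.2 RPKM of Usp18 and 0 of Ifit3, and Cxcl10 was at 0 in it as well.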

How the results depend on the processing

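Of 18 alternatives for DKOITD against WT, Ccl22 and Cxcl16 were each called in 17, Ccl5 in 12 and Ccl9 in 4. Ccl22 against ITD was called in 12 of 18, and Ccl5 and Cxcl16, not called against ITD with the deposited scale, were called in 6 and 2. Depth limits the low ligands: Cxcl2, Ccl4 and Ccl17 rest on few reads or few libraries.

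Genes called in DKOITD against WT, 1380 on the deposited scale, were 733 without the filter on low values, 2782 per recovered read, 4 with a term for the series of label numbers and 792 without WT replicate 2 and DKOITD replicate 2, which was added after seeing the data; leaving out 1 library gave 541 to 1962, with 611 without DKOITD 1, 541 without DKOITD 3 and 766 without WT 2. The ligands called were 2 without the filter, 0 with the series term and 2 to 5 with 1 library left out. In DKOITD against ITD the 23 genes became 42 with quantile normalization, 268 per recovered read, 526 with library weights, 94 with 2 groups in the fit, 0 with the series term, 73 without WT 2 and DKOITD 2, and 0 to 156 with 1 library left out: 1 without DKOITD 1, 0 without DKOITD 3, 156 without DKOITD 4, 1 without ITD 1, 0 without ITD 2 and 57 without WT 2. The 1 ligand became 3 per recovered read, 3 with library weights, 2 with 2 groups in the fit, 0 with the series term, 2 without WT 2 and DKOITD 2, and 0 to 2 with 1 library left out. In ITD against WT the 1 gene became 2 with a pseudocount of 0.1, 3 without the filter, and 0 to 47 with 1 library left out (0 without ITD 2, 2 without DKOITD 2, 10 without WT 1 and 47 without WT 3), and 0 ligands were called under every alternative run. The series term was not used for ITD against WT, whose libraries lie in 1 series.

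Replicate numbers did not pair the libraries: same-numbered libraries had deviations correlated between -0.044 and 0.071. With the replicate block, genes called were 884, 57 and 0 in DKOITD against WT, DKOITD against ITD and ITD against WT, and ligands called 3, 0 and 0. Ccl22 against ITD had an adjusted p of 0.0555 with the block.

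The signs that turned belong to differences that were not called. In DKOITD against WT, Ccl4 was -0.19 with quantile normalization, -0.51 with library weights, -0.010 with the replicate block, -0.46 without WT 2 and DKOITD 2 and -0.48 to 1.24 with 1 library left out. In DKOITD against ITD, Ccl4 was 0.54 with a pseudocount of 0.1, 0.26 per recovered read, 0.017 with library weights, 0.28 with the series term, 0.0022 without WT 2 and DKOITD 2 and -1.29 to 1.24 with 1 library left out; Ccl9 was -0.029 with the replicate block; Cxcl10 was 0.69 without WT 2 and DKOITD 2 and -1.67 to 0.69 with 1 library left out; Ccl6 was -0.20 to 0.28 with 1 library left out. In ITD against WT, Ccl4 was -0.53 with library weights, -0.46 without WT 2 and DKOITD 2 and -1.15 to 1.38 with 1 library left out; Cxcl2 was 0.11 with the replicate block and -0.34 to 0.52 with 1 library left out; Ccl3 and Ccl5 were -0.071 and 0.11 without WT 2 and DKOITD 2, and -0.071 to 2.11 and -3.05 to 0.11 with 1 library left out; Cxcl16 was -0.70 to 2.00 with 1 library left out. The cause of these changes was not tested.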
